A study of Drosophila melanogaster with 9 samples.

Results

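The cytochrome P450 genes of the Drosophila melanogaster larval central nervous system (CNS) were followed across control, HtlACT and InR tissue. A gene was taken as a P450 gene when its symbol in the platform's annotation has the form Cyp, a family number, a letter code and a gene number, on a probe set that names 1 gene, and where a gene had more than 1 such probe set the one brightest on average over the 9 arrays (on the log2 scale) was read. There were 81 such genes among the 17105 genes and unnamed probe sets on the array, called features here. Of the 81, 25 belonged to the brighter 8552 features that were tested, with a mean signal of at least 35.2, and 56 were dimmer. Ecdysone synthesis P450 genes that go by other symbols, such as *dib* and *sad*, are outside this definition and are described separately.

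Cytochrome P450 enzymes are heme proteins that insert oxygen into a substrate with electrons from a reductase or, in mitochondria, from a ferredoxin. Insect P450 genes are grouped into the CYP2, CYP3, CYP4 and mitochondrial clades. The CYP3 and CYP4 clades hold many enzymes that act on plant toxins, insecticides and fatty acids, and the CYP2 and mitochondrial clades hold the enzymes of ecdysone synthesis. In the larval brain *Cyp4g15* is known from cortex glia, which wrap neuronal cell bodies, and the enzyme of its close relative *Cyp4g1* makes the hydrocarbons of the cuticle in oenocytes.

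Controls carried the glial driver alone (repoGal4/+), HtlACT larvae carried repoGal4>UAS-Htl[ACT], an activated FGF receptor, and InR larvae carried repoGal4>UAS-InR, the insulin receptor, so that all groups shared the driver and the transgenes acted in glia that express *repo*. Each group had 3 arrays, and each array was hybridised with RNA of the complete CNS of 10 to 15 wandering larvae of the third instar raised on standard food at 25 degrees. RNA was prepared in triplicate for each genotype, and whether the larvae came from separate crosses is not stated, so p-values measure the spread between these preparations, which may be technical. A signal sums over all cells of the CNS and any tissue taken with it, and fewer cells of a type cannot be told apart from less RNA per cell.

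The deposited values are linear MAS5 signals with a median of 30.7 to 40.6 on the 9 arrays, and without detection calls, so that how many of the signals near or below these medians exceed background is not known. The number of arrays limits the precision. The gene *htl* read 271 to 342 in control and 1677 to 2345 in HtlACT tissue, a log2 change of 2.72 (SE 0.16, limma adjusted p = 1.42e-05). The probe set of InR was at −0.23 in InR tissue (limma adjusted p = 0.384), and whether it reads the transgene is not known. Glial *repo* rose by 1.32 and 0.75 in HtlACT and InR tissue, and the neuronal markers *elav* and *nSyb* fell in HtlACT tissue by 0.81 and 1.04. In InR tissue *nSyb* fell by 0.82 (limma adjusted p = 0.000907) and *elav* was at −0.43, under 1.5-fold (limma adjusted p = 0.0178). Of 4 imaginal disc markers 3 fell in HtlACT and 1 in InR tissue, both tracheal markers found rose in InR tissue, and the muscle markers *Mlc2* and *up* stayed under the limit for testing. All fold changes are relative to the MAS5 scaling, under which the median tested feature changed by −0.15 in HtlACT and −0.09 in InR tissue on the log2 scale.

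In HtlACT tissue 8 of the 25 tested P450 genes rose and 1 fell, where a call needed a change of 1.5-fold or more together with p, adjusted by Benjamini and Hochberg's method over all tested features, of 0.05 or less in limma. The same rule called 13% of all tested features higher and 19.2% lower. In InR tissue 6 P450 genes rose (9.24% of all features) and 3 fell (6.58%, or 12% after median centring, with which 3 P450 genes fell as well). Compared directly, 5 P450 genes were higher in HtlACT than in InR tissue (5.43%) and 3 were lower (6.45%). *Cyp6d4*, *Cyp6t1*, *Cyp6v1* and *Cyp9h1* rose in both tissues, as did 6.26% of all tested features, and *Cyp301a1* fell in both, as did 5.85%. Both comparisons share the control arrays, and nothing is read from these overlaps. The median log2 change of the 25 genes was 0.15 in HtlACT and 0.15 in InR tissue. All 3 arrays of HtlACT lay above all 3 of control for 9 of the 25 genes (24.1% of all tested features) and below them for 2 (39.7%), and the InR arrays did so for 10 (20.5%) and 3 (32.1%). Between HtlACT and InR tissue the arrays did not overlap for 7 genes in which HtlACT was higher (16.8%) and 3 in which it was lower (25%). Without control 2 and InR 2, arrays high in fat body genes, 9 genes rose and 0 fell in HtlACT tissue (12.2% and 17.8% of all features in limma, and 1 P450 gene lower at an unadjusted p under 0.05) and 5 rose and 1 fell in InR tissue (6.92% and 3.71%). InR 3, also high in fat body genes, was kept in this fit. Among the tested genes 1, *Cyp4p1*, had a mean control signal under the limit for testing, so that it passed only through its InR arrays. *Cyp301a1* passed only through its control arrays (mean 58.9), with means under the limit in HtlACT (35.1) and InR tissue (31.8). The counts are therefore a description of the genes that could be tested.

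**Figure D1:**
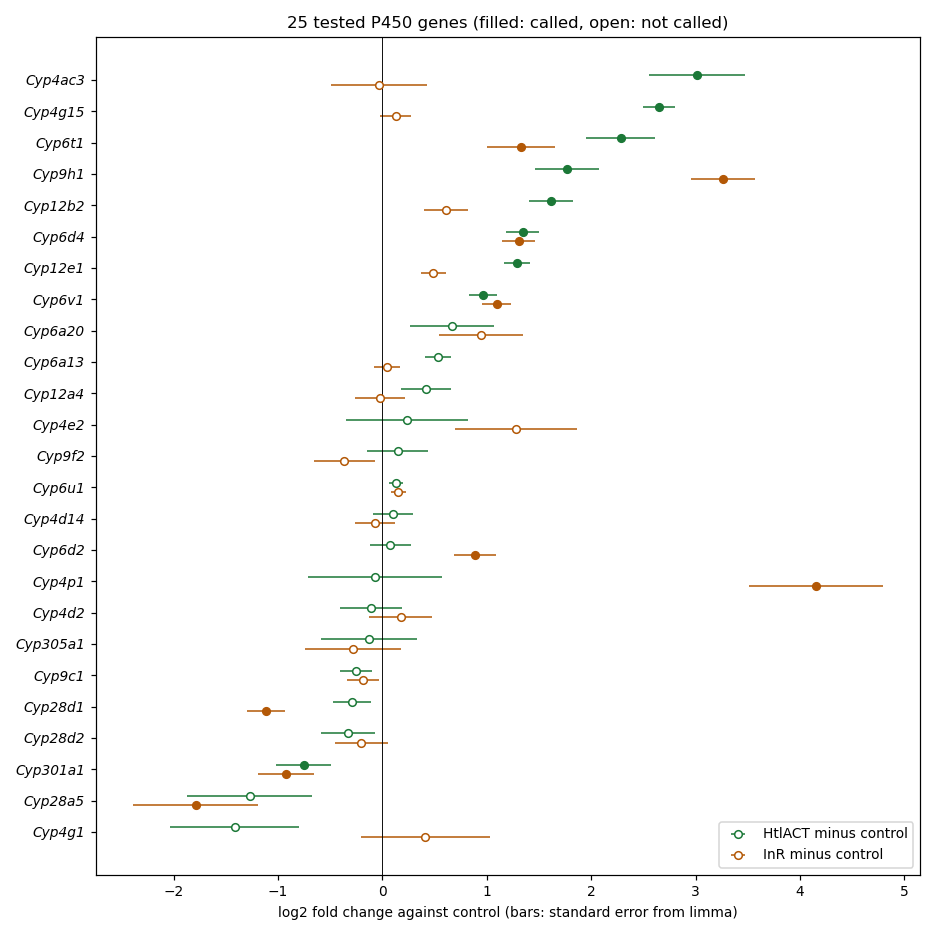
Log2 fold changes against control of the 25 tested P450 genes in HtlACT (green) and InR tissue (orange), ordered by the HtlACT value. Bars are standard errors from limma, n = 3 arrays a group, and filled points passed the fold and p limits: 8 genes lie to the right and 1 to the left for HtlACT, 6 and 3 for InR.

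*Cyp4g15*, the P450 gene of cortex glia, had the smallest p of the family in HtlACT tissue. It belongs to the CYP4 clade with 32 of the 81 genes, of which 7 were tested, 2 rose in HtlACT tissue (13% of all features) and 1 in InR tissue (9.24%), namely *Cyp4p1*. Control arrays 1 to 3 read 1132, 1495 and 1671 for it, and HtlACT arrays 9641, 7817 and 9260.0. The lowest HtlACT array lay well above the highest control array, and the mean went from 1432 ± 275 to 8906 ± 962 (SD, n = 3 each). This is a 6.27-fold increase, or 2.65 on the log2 scale (SE 0.15, limma adjusted p = 1.18e-05). In the InR samples the gene read 1460.0, 1635 and 1537, all within the control range, a log2 change of 0.13 (SE 0.15, limma adjusted p = 0.544). HtlACT tissue was higher than InR tissue by 2.52 (SE 0.15, limma adjusted p = 4.30e-05). The other cortex glial markers on the list, *wrapper* and *zyd*, rose by 1.86 and 2.43 in HtlACT tissue, beside the 1.32 of the pan-glial gene *repo*. In InR tissue *zyd* rose by 0.62 and *wrapper* was at 0.04 (limma adjusted p = 0.77).

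*Cyp4g1*, the other gene of this subfamily, followed another course at low signal. It read 51, 76.7 and 45.2 in control, 13.1, 27.3 and 26 in HtlACT and 129, 126 and 25.7 in InR samples. All HtlACT arrays lay below all control arrays, while InR 1 and InR 2 lay above the controls and InR 3 below them. Neither the value for HtlACT tissue, −1.41 (limma adjusted p = 0.0815), nor that for InR tissue, 0.41 (limma adjusted p = 0.634), passed the test, nor did their difference of −1.83 (limma adjusted p = 0.0642). Without InR 3 all 3 passed, at −1.41, 1.18 and −2.60 (limma adjusted p = 0.00768, 0.0446 and 0.00438), and on the 6 arrays of HtlACT and control the first did (0.0148). *Cyp4g1* is also a defining marker of oenocytes, and the other oenocyte marker on the list, *FarO*, was at 0.972 to 29.9 on all arrays.

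**Figure D2:**
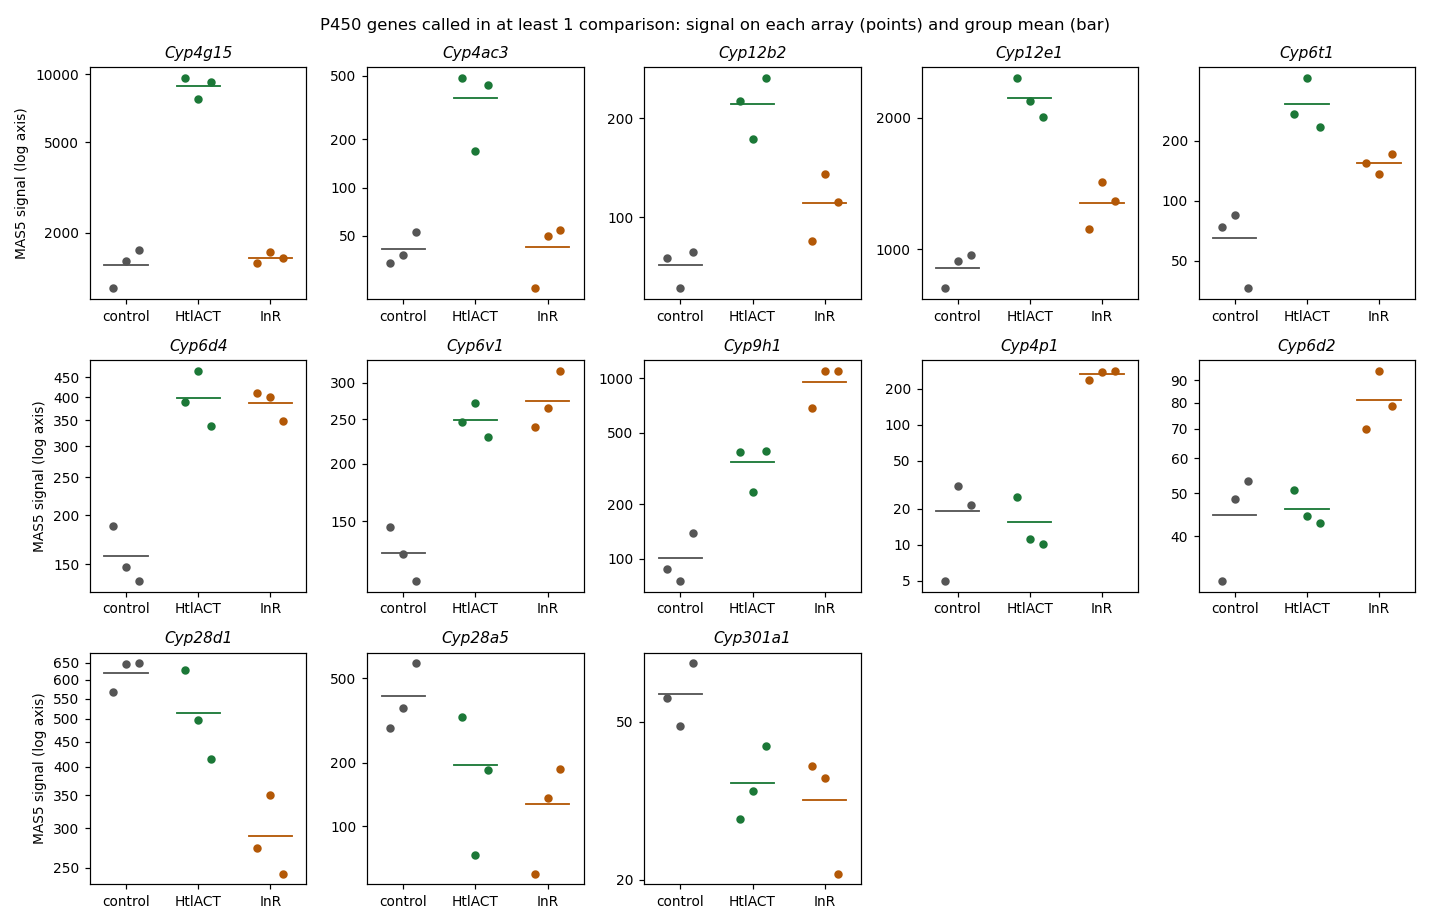
MAS5 signal on a log axis of the 13 P450 genes that were called in at least 1 of the 3 comparisons, with 1 point an array and a bar at the group mean. *Cyp4g15*, *Cyp4ac3*, *Cyp6t1*, *Cyp12b2* and *Cyp12e1* have all HtlACT arrays above all other arrays, and *Cyp4p1*, *Cyp6d2* and *Cyp9h1* have all InR arrays above all other arrays.

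*Cyp4ac3*, a CYP4 gene, rose in HtlACT tissue from control signals near the array medians. Signals were 34, 37.7 and 53 in control and 483, 168 and 439 in HtlACT samples, with HtlACT 2 well below the other 2 and still above every control. The increase was 8.07-fold, 3.01 on the log2 scale (SE 0.46, limma adjusted p = 0.000888). InR samples read 23.4, 49.9 and 54.1, which overlaps the controls (−0.03, limma adjusted p = 0.964), and the direct difference was 3.05 (SE 0.46, limma adjusted p = 0.00285). Its neighbours in the gene table, *Cyp4ac1* and *Cyp4ac2*, were below the limit for testing, with HtlACT signals of 13.5, 2.48 and 15.9 and of 8.13, 24.1 and 2.42, so that 1 gene of this group of 3 entered the test.

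*Cyp4p1* and *Cyp4p2* were high in InR tissue alone. *Cyp4p1* read 4.97, 30.8 and 21.4 in control, 24.9, 11.2 and 10.1 in HtlACT and 236, 276 and 283 in InR samples. The fitted change in InR tissue was 4.15 (SE 0.64, limma adjusted p = 0.00226) and the direct difference between HtlACT and InR tissue was −4.23 (SE 0.64, limma adjusted p = 0.00288). Its neighbour *Cyp4p2* was low in 6 samples, with 2, 11 and 2.48 in control and 3.57, 3.93 and 10 in HtlACT samples, and read 669, 680.2 and 813 in the InR samples. Because its mean over all arrays was low, *Cyp4p2* did not enter the test; in a fit of all 17105 features without a filter its change in InR tissue was 7.56 (SE 0.69, limma adjusted p = 0.00171). As *Cyp4p1* had entered the test only through its InR arrays, its values in that fit are given too, limma adjusted p = 0.0149 for InR tissue and 0.0186 for the direct difference. The sizes of both changes are poorly measured, as the control signals lie below the medians of their arrays. The third gene of the group, *Cyp4p3*, read 2.39, 15.1 and 16.3 in InR samples against 1.14, 11.3 and 2.02 in controls and was not called in that fit (limma adjusted p = 0.477).

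**Figure D3:**
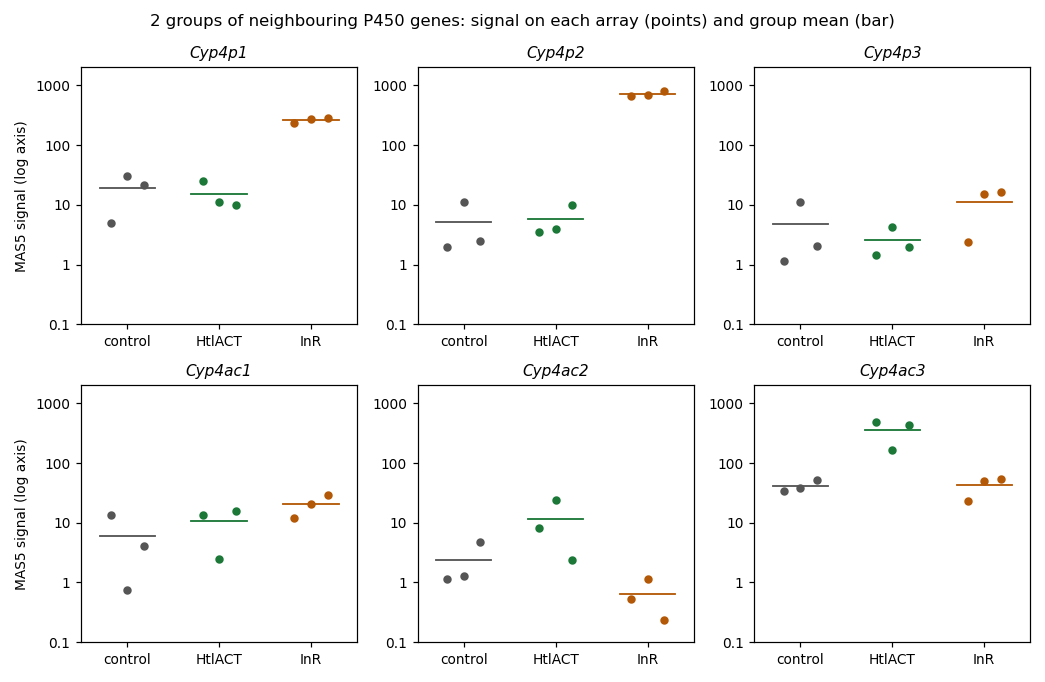
MAS5 signal on a log axis of 2 groups of neighbouring P450 genes, with 1 point an array and a bar at the group mean. The InR arrays of *Cyp4p1* and *Cyp4p2* and the HtlACT arrays of *Cyp4ac3* stand above the other arrays, and the remaining genes are low.

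InR samples differed from each other in markers of other tissues. Of 6 fat body markers 3 were found, and their summed signal was 842, 18740.0 and 9876 in the InR samples. Control samples had sums of 659.7, 6944 and 585, and HtlACT samples of 609 to 1011, with no marker at 0. Control 2, InR 2 and InR 3 were thus the arrays high in fat body genes. InR 1, low in these markers, had a *Cyp4p1* signal of 236 and a *Cyp4p2* signal of 669, beside *Cyp4p1* signals of 276 and 283 on InR 2 and InR 3. All 6 hemocyte markers were found and their summed signal was 736, 1305 and 1327 in InR samples, 495 to 563 in control and 204 to 480.0 in HtlACT samples, also with none at 0. The parts of fat body and of hemocytes in the InR results were not tested.

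The 4 genes that rose in both tissues, as did 6.26% of all tested features, were among the 13 tested genes of the CYP3 clade. *Cyp9h1* read 88.3, 75.4 and 139.6 in control, 392, 235 and 398 in HtlACT and 683, 1090.0 and 1102 in InR samples, 3 groups that did not overlap. The gene rose by 1.77 (SE 0.31, limma adjusted p = 0.00165) and by 3.26 (SE 0.31, limma adjusted p = 0.000216), and the difference of HtlACT from InR tissue was −1.49 (SE 0.31, limma adjusted p = 0.0107). In the fit without a filter the last difference had limma adjusted p = 0.0514, and without control 2 and InR 2 it was −1.39 (limma adjusted p = 0.0514).

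*Cyp6t1* was ordered the other way. Its signals were 74.1, 84.5 and 36.4 in control, 273, 413 and 233 in HtlACT and 154, 136 and 172 in InR samples, again without overlap. The log2 changes were 2.28 (SE 0.33, limma adjusted p = 0.000672) and 1.33 (SE 0.33, limma adjusted p = 0.0163). The call in InR tissue was lost without InR 3 (limma adjusted p = 0.0507) and without a filter (0.0655). HtlACT exceeded InR tissue by 0.96, which did not pass (limma adjusted p = 0.0676) except after quantile normalization or median centring, with the pseudocount, on the 6 arrays alone or without control 3 (limma adjusted p = 0.0104 to 0.0428).

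*Cyp6d4* and *Cyp6v1* rose by like amounts in both tissues. *Cyp6d4* went from 188, 148 and 136 in control to 389.8, 469 and 338 in HtlACT and 411, 400.5 and 348 in InR samples, 2.54-fold and 2.47-fold (limma adjusted p = 0.000267 and 0.000768). The direct difference was 0.04 (SE 0.16, limma adjusted p = 0.889). *Cyp6v1* went from 146, 127 and 111 in control to 246, 272 and 228 in HtlACT and 240.0, 264 and 318 in InR samples, 1.95-fold and 2.14-fold (limma adjusted p = 0.000655 and 0.000924), and the direct difference was −0.13 (SE 0.14, limma adjusted p = 0.515). Both genes had control arrays below all 6 other arrays, and the HtlACT and InR arrays of each overlapped. A probe set that names *Cyp6v1* together with *shn* differed, with 2827 to 3884 in HtlACT and 7020 to 8751 in InR samples. Whether it reads *Cyp6v1* is not known.

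*Cyp6d2* rose in InR tissue, where it read 69.8, 94.5 and 78.7. It read 31.7, 48.7 and 53.4 in control and 50.8, 44.4 and 42.9 in HtlACT samples, so that the InR arrays lay above all others in a gene whose signals are close to the array medians. The change was 0.89 in InR (SE 0.20, limma adjusted p = 0.0113) and 0.08 in HtlACT tissue (limma adjusted p = 0.763), and the direct difference −0.81 (SE 0.20, limma adjusted p = 0.0223) was lost without HtlACT 2, HtlACT 3, InR 2 or InR 3 (limma adjusted p = 0.0538 to 0.0724), after quantile normalization (0.163) or median centring (0.128) and without a filter (0.0926). The call in InR tissue was lost without a filter (limma adjusted p = 0.0542) and without control 2 and InR 2 (0.85, limma adjusted p = 0.0684).

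Of 3 tested CYP28 genes, *Cyp28d1* and *Cyp28a5* fell in InR tissue, where 6.58% of all tested features fell (12% after median centring). *Cyp28d1*, a gene known from larval resistance to nicotine, read 568, 646 and 649 in control, 629, 498 and 415 in HtlACT and 274, 351 and 243 in InR samples. All InR arrays lay below all others, with a change of −1.12 (SE 0.18, limma adjusted p = 0.00273), while the HtlACT arrays overlapped the controls (−0.29, limma adjusted p = 0.199). HtlACT tissue was higher than InR tissue by 0.83 (SE 0.18, limma adjusted p = 0.0133), which was not called without a filter (limma adjusted p = 0.065). The gene next to it, *Cyp28d2*, read 41.7 to 73, 36 to 61 and 44.3 to 61 in the 3 groups and passed in no comparison.

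*Cyp28a5* scattered more. The signals were 293, 360.5 and 589.8 in control, 327, 73.3 and 184 in HtlACT and 59.8, 136 and 186 in InR samples, with HtlACT 1 among the controls. The change in InR tissue was −1.79 (SE 0.60, limma adjusted p = 0.0479) and that in HtlACT tissue, −1.27 (limma adjusted p = 0.103), did not pass. The InR call was lost without any 1 of control 1, control 2, control 3, HtlACT 3, InR 1 and InR 2 (limma adjusted p = 0.0656 to 0.139), with the replicate block over all arrays (0.0574) and without a filter (0.143), among other settings, and held with the replicate block on the 6 arrays of control and InR (0.00914). Without HtlACT 1 the decrease in HtlACT tissue passed at −1.77 (0.0394).

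Of the 4 tested genes of the mitochondrial clade, 2 rose in HtlACT tissue, as did 13% of all tested features. *Cyp12e1* read 814, 939 and 972 in control, 2465, 2183 and 2012 in HtlACT and 1115, 1423 and 1288 in InR samples, and the order of the 3 groups had no overlap. Its change was 1.29 in HtlACT tissue (SE 0.12, limma adjusted p = 9.42e-05). In InR tissue it was 0.49, below 1.5-fold (SE 0.12, limma adjusted p = 0.0168), and the direct difference was 0.80 (SE 0.12, limma adjusted p = 0.00289). A second probe set of the gene moved in parallel, with 552.2, 637 and 844 in control, 1702, 1650.0 and 1414 in HtlACT and 916, 967 and 920.1 in InR samples.

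*Cyp12b2* had the same order of groups at a lower signal. It read 75.2, 60.8 and 78.6 in control, 225, 173 and 264 in HtlACT and 84.6, 136 and 111 in InR samples. The increase was 3.06-fold in HtlACT tissue, 1.61 on the log2 scale (SE 0.21, limma adjusted p = 0.000416). In InR tissue a change of 0.61 (SE 0.21, limma adjusted p = 0.0529) did not pass, but did so without HtlACT 2, HtlACT 3 or InR 1 (limma adjusted p = 0.0271 to 0.0499). The direct difference of 1.01 (SE 0.21, limma adjusted p = 0.0114) was not called without a filter (limma adjusted p = 0.0564).

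*Cyp301a1*, a gene of cuticle formation, was the P450 gene that fell in both tissues. Its signals were low, 57.6, 48.9 and 70.3 in control, 28.4, 33.4 and 43.5 in HtlACT and 38.7, 36 and 20.7 in InR samples, with every control array above the other 6 arrays. The decreases of 0.75 (SE 0.26, limma adjusted p = 0.0396) and 0.93 (SE 0.26, limma adjusted p = 0.0276) depended on the setting. The first was lost after quantile normalization or median centring (limma adjusted p = 0.094 and 0.115) and without control 1, control 3, HtlACT 1 or HtlACT 2 (0.0808 to 0.122). The second was lost without control 1, control 3 or InR 3 (0.0574 to 0.0871) and with the replicate block (0.0549, or 0.0744 on the 6 arrays of control and InR). Both were lost in the fit without a filter (limma adjusted p = 0.118 in HtlACT and 0.099 in InR tissue). The gene had entered the test only through its control arrays. *Cyp12a4*, a gene that gives lufenuron resistance when overexpressed, had signals of 223 to 369, 298 to 523 and 250.4 to 313 in the 3 groups and passed in no comparison.

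The CYP2 clade had 1 tested gene, *Cyp305a1*, with overlapping signals of 28.5 to 52.6 in control, 24.4 to 68 in HtlACT and 24.7 to 54.5 in InR samples. In all, 12 tested P450 genes passed in no comparison, with log2 values of −1.41 to 0.67 in HtlACT and −0.36 to 1.28 in InR tissue. Among them *Cyp6a13* was under 1.5-fold in HtlACT tissue at an adjusted p below the limit, as it read 296, 331 and 269 in control, 509.8, 417 and 374 in HtlACT and 309, 320.5 and 291 in InR samples (0.53, SE 0.13, limma adjusted p = 0.00771 for HtlACT). Its change exceeded 1.5-fold in HtlACT tissue after quantile normalization or median centring (0.66 and 0.70), without control 2 (0.61) and without HtlACT 3 (0.63). *Cyp6a20*, known for its effect on aggression, read 48.7, 48 and 48.2 in control, 104, 43.4 and 101 in HtlACT and 85.6, 60.8 and 153 in InR samples, with InR arrays above the controls at 0.94 (limma adjusted p = 0.102). With the replicate block over all arrays it passed in InR tissue (0.0498) but not on the 6 arrays of control and InR (0.06), and without HtlACT 2 it passed in HtlACT (1.08, limma adjusted p = 0.0292) and InR tissue (0.0441). *Cyp6u1* varied little, at 327 to 352, 343 to 382 and 362 to 379 in the 3 groups, with all InR arrays above all controls (limma adjusted p = 0.13).

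*Cyp4e2* varied within groups, with 68.6, 179 and 34.9 in control, 82.5, 126 and 67 in HtlACT and 109, 269 and 209 in InR samples, and its value of 1.28 in InR tissue did not pass (limma adjusted p = 0.123). With the replicate block over all arrays it did (0.049), on the 6 arrays of control and InR it did not (0.0924), and without control 2 it was 1.90 (0.0254). Its highest control was control 2 and its highest InR arrays were InR 2 and InR 3, the same arrays that were high in fat body markers. The part of fat body in this value was not tested. *Cyp9f2* (596 to 1217 in control, 684 to 1299 in HtlACT and 612 to 713 in InR samples) also had its highest control at control 2. The remaining uncalled genes *Cyp9c1*, *Cyp4d2* and *Cyp4d14* overlapped between all groups, with log2 values between −0.25 and 0.17 against control.

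The 56 dimmer P450 genes had signals of 0.237 to 813 on single arrays, and 36 of them were below 35.2 on every array. They included *Cyp18a1*, whose enzyme inactivates ecdysteroids (4.95 to 29.7 in control, 25.8 to 33.1 in HtlACT and 18.8 to 43 in InR samples), *Cyp303a1*, which acts in sensory bristles, *Cyp4d21*, a gene of male mating, and *Cyp6a2*, which metabolises insecticides. In the fit of all features without a filter, 8 of the 81 P450 genes were called higher (6.51% of all features) and 1 lower (8.92%) in HtlACT tissue, and 5 higher (4.22%) and 1 lower (2.03%) in InR tissue. Directly, 3 were higher (2.31%) and 3 lower (2.14%) in HtlACT than in InR tissue. Of the 56 dimmer genes, *Cyp4p2* and *Cyp6g2* were called there. *Cyp6g2*, which is expressed in the corpus allatum of the ring gland, read 14.2, 23.9 and 11.6 in control, 2.32, 4.81 and 4.92 in HtlACT and 53, 30.4 and 30.9 in InR samples, 3 groups without overlap at low signal. The HtlACT signals lay below the 25th percentile of their arrays and the control signals below the medians, so that the sizes of its differences are not measured. The fitted values were −2.05 in HtlACT tissue (SE 0.41, limma adjusted p = 0.0128), 1.22 in InR tissue (limma adjusted p = 0.125) and −3.27 between HtlACT and InR tissue (SE 0.41, limma adjusted p = 0.00768).

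Another set of dimmer P450 genes stood out on control 2. In 9 of the 81 P450 genes (11.1%) control 2 was at least 35.2 and at least 3 times both other controls, a pattern found in 171 of all 17105 features (1%), and all 9 were below the limit for testing. They were *Cyp12d1-d*, *Cyp304a1*, *Cyp4ad1*, *Cyp4d1*, *Cyp6a14*, *Cyp6d5*, *Cyp6g1*, *Cyp6w1* and *Cyp9b2*, a set picked after the values were seen. *Cyp6g1*, whose overexpression gives resistance to DDT, read 4.81, 144 and 2.95 in control, 18.6, 22.2 and 21.3 in HtlACT and 12.5, 117 and 74.3 in InR samples, high on control 2, InR 2 and InR 3. *Cyp4d1* had 11.2, 56.3 and 3.51 in control, 7.66, 4.81 and 5.86 in HtlACT and 3.3, 216 and 192 in InR samples. For both genes, as for the fat body sums given above, control 2, InR 2 and InR 3 were the 3 highest arrays. The same 3 arrays were highest for *Cyp9b2*, *Cyp6d5* and *Cyp12d1-d*, for the last by little (14.1 on InR 3 against 13.1 on HtlACT 3). *Cyp9b2* read 19.6, 182 and 13.7 in control, at most 21.65 in HtlACT and 23, 45.2 and 46.1 in InR samples. *Cyp304a1*, *Cyp4ad1*, *Cyp6a14* and *Cyp6w1* had another array among their 3 highest. *Cyp6d5* read 32, 470.2 and 4.28 in control, at most 26.6 in HtlACT and 23.2, 76.2 and 35.6 in InR samples. *Cyp304a1* read 12.8, 142 and 9.89 in control and 11.2, 1.55 and 1.56 in InR samples, low on InR 2 and InR 3. The 9 genes thus did not share 1 course over the InR arrays, and the part of fat body in them was not tested.

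**Figure D4:**
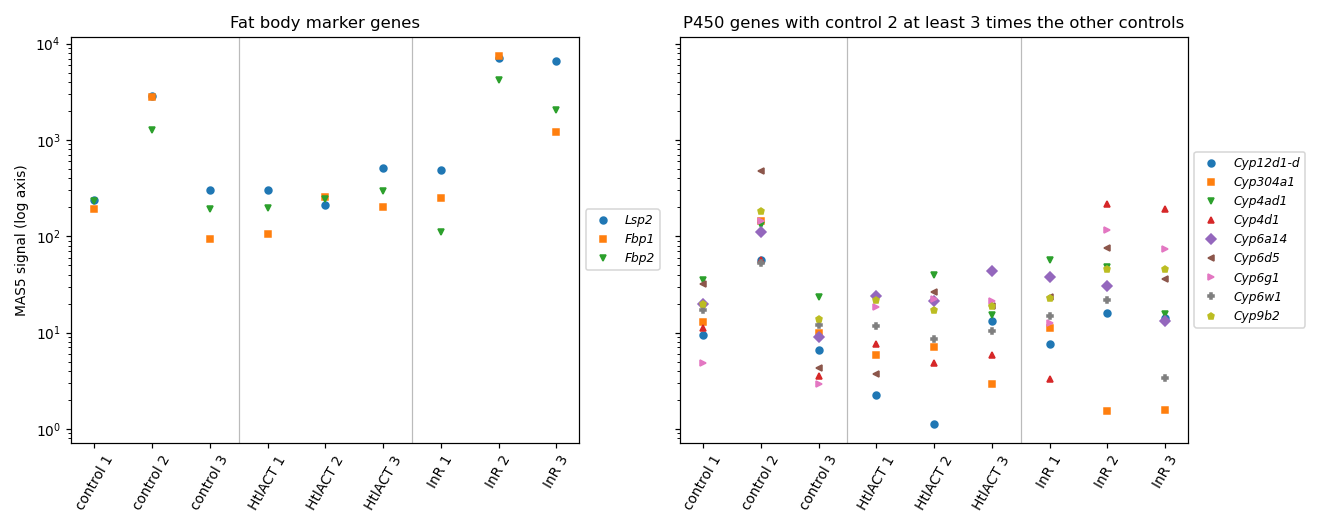
MAS5 signal on a log axis for each of the 9 arrays of 3 fat body marker genes (left) and of the 9 P450 genes with control 2 at least 3 times both other controls (right). Control 2 is high in both panels, and InR 2 and InR 3 are high for the markers, *Cyp4d1* and *Cyp6g1* and not for *Cyp304a1* or *Cyp6a14*.

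Many P450 genes lie side by side in the genome. In the order of protein-coding genes of the RefSeq table, 42 of the 81 genes lay in 15 groups of at least 2 neighbouring P450 genes, and 3 of these groups held a gene called among the 25 tested. These were the pair of *Cyp28d1* and *Cyp28d2*, the Cyp4ac group and the Cyp4p group, and in each 1 tested gene was called. The largest group had 9 genes, from *Cyp6a22* to *Cyp317a1*, of which *Cyp6a20* alone was tested. *Cyp6g2*, called without a filter, lies in a group with *Cyp6g1* and *Cyp6t3*. The other 10 called genes, *Cyp4g15* among them, had no P450 gene next to them in this table. Neighbouring copies can be alike in sequence, and how far a probe set reads its neighbour was not tested.

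The P450 genes of ecdysone synthesis, which go by other names and act in the prothoracic gland of the ring gland, were read from 5 of 6 listed genes, 4 of them tested. In InR tissue *spok*, *sad* and *dib* rose, as did 9.24% of all tested features. In HtlACT tissue 0 of the 4 passed limma's test, also at an unadjusted p under 0.05. *spok* read 142, 129.7 and 92.3 in control, 99.1, 466 and 247 in HtlACT and 1203, 1189 and 447 in InR samples, a change of 2.85 in InR tissue (SE 0.58, limma adjusted p = 0.00732). InR 3 was the lowest InR array and HtlACT 2 and HtlACT 3 exceeded the controls. For *sad* the signals were 109, 125 and 57.4 in control, 70.1, 273 and 187 in HtlACT and 791, 661 and 381 in InR samples, a change of 2.66 (SE 0.53, limma adjusted p = 0.0067). For *dib* they were 23.4 to 42 in control, 20.1 to 28 in HtlACT and 77 to 114 in InR samples, a change of 1.63 (SE 0.24, limma adjusted p = 0.00177). The means of *dib* in control (31.6) and HtlACT tissue (24.7) were under the limit for testing, so that it was tested only through its InR arrays. The difference of HtlACT from InR tissue was, for *spok*, *sad* and *dib*, −1.94, −1.93 and −1.95 (limma adjusted p = 0.0437, 0.0318 and 0.00107). The tested gene *shd*, whose enzyme acts in target tissues, was at 0.20 in InR tissue (limma adjusted p = 0.496).

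**Figure D5:**
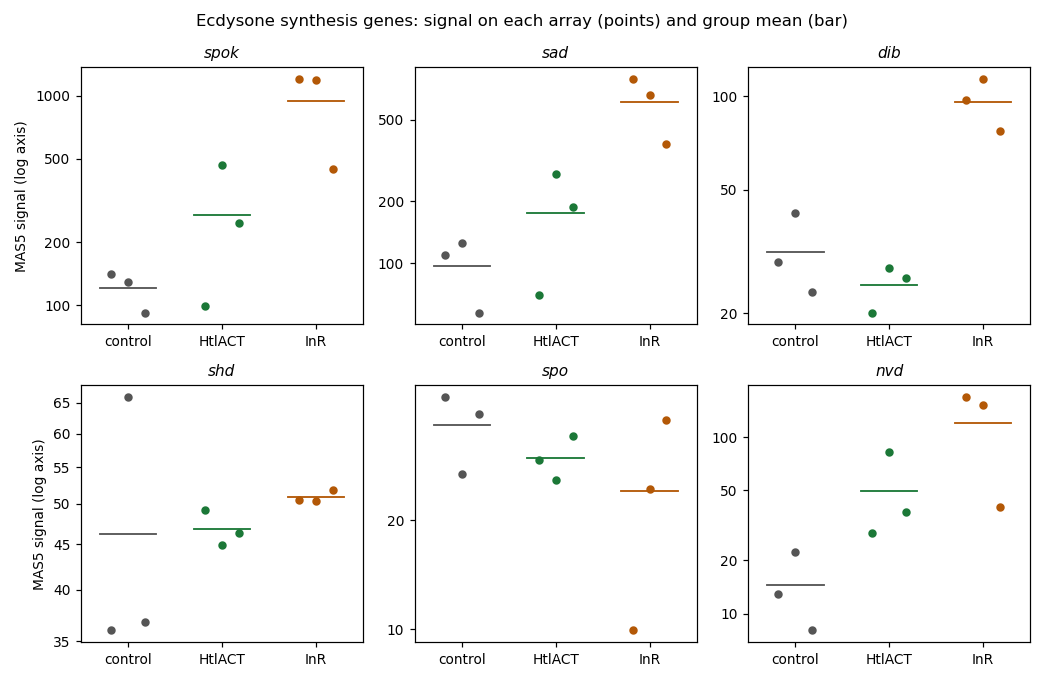
MAS5 signal on a log axis of 6 ecdysone synthesis genes, with 1 point an array and a bar at the group mean. The InR arrays of *spok*, *sad* and *dib* lie above the controls, those of *shd* and *spo* overlap them, and *nvd* encodes an oxygenase of the same pathway that is not a P450.

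Of 6 ring gland markers, 3 of them the P450 genes above, 5 were found, and *nvd* rose by 1.75 (SE 0.65, limma adjusted p = 0.0478) in HtlACT and 2.93 (SE 0.65, limma adjusted p = 0.0103) in InR tissue, while *Akh*, the hormone gene of the corpora cardiaca, was at 1.17 in InR tissue (limma adjusted p = 0.0608). The control mean of *nvd*, 14.5, was under the limit for testing. The summed signal of the 5 markers was 702 to 802 in control, 1200.0 to 1610.0 in HtlACT and 1964 to 3614 in InR samples, with none at 0. More ring gland tissue on an array and more RNA per gland cell cannot be told apart here.

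Electron donor and heme synthesis genes were read as well, and 1 and 2 of them rose in HtlACT tissue, as did 13% of all tested features. The listed electron donor genes *Cpr* and *dare* were not found on a probe set naming them alone. Of 4 electron donor genes found, 3 were tested, and *Fdx2*, a mitochondrial ferredoxin gene, rose in HtlACT tissue, from 463, 593 and 596 in control to 1436, 1202 and 1561 (1.35, SE 0.14, limma adjusted p = 0.000144). In InR samples it read 717, 810.4 and 867, under 1.5-fold at 0.54 (limma adjusted p = 0.0187), and HtlACT exceeded InR tissue by 0.81 (SE 0.14, limma adjusted p = 0.00515). The cytochrome b5 gene *Cyt-b5* had signals of 4656 to 4790.0 in control and 6437 to 7232 in HtlACT samples, under 1.5-fold at 0.55 (limma adjusted p = 0.000891), and *Fdx1* was at 0.07 (limma adjusted p = 0.706). Of 6 heme synthesis genes tested, *Pbgs* and *Coprox* rose in HtlACT tissue, by 0.61 and 0.64 (limma adjusted p = 0.00164 and 0.000812), and 0 were called by limma in InR tissue, where 2 had an unadjusted p under 0.05, *Pbgs* and *Coprox*, at 0.32 and 0.35. Among 4 regulators of detoxification genes, *Keap1*, which holds back the factor made by *cnc*, fell in HtlACT tissue by 0.75 (SE 0.16, limma adjusted p = 0.00521), and *cnc* was at −0.14 (limma adjusted p = 0.641). The remaining regulators *maf-S* (−0.47, limma adjusted p = 0.000733) and *Hr96* (0.24, 0.0686) changed by less than 1.5-fold, and in InR tissue 0 of the 4 were called by limma and 1 had an unadjusted p under 0.05.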

How the data were processed

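RNA of whole larval CNS was hybridised to 9 Affymetrix Drosophila Genome 2.0 arrays, 3 for each genotype, with cRNA from 500 ng of total RNA. The authors computed MAS 5.0 signals in Affymetrix Expression Console (version not given in the sources used here). The deposited values are linear signals (intensity) whose 2% trimmed mean was 500.0 on each array. Detection calls were not used here. After 183 controls were left out, 13646 probe sets named 1 gene, 402 several and 4721 none, and all 81 P450 gene IDs were found in the RefSeq table (Release 6 plus ISO1 MT), which was used for names and gene order only.

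Log2 signals of the brighter 8552 of 17105 features were fitted with limma 3.58.1 (R 4.3.3) on all arrays, with 6 residual and 2.09 prior degrees of freedom. The calculation was tested on simulated data. Dimmer genes were read from a fit without a filter. SAM, the test of the methods, was not run here, and limma over all features was used in its place. P450 genes called in any comparison were named with full values, other tested ones with their values or ranges, and dimmer ones mainly as counts and ranges. The P450 genes, marker lists and partner lists were chosen with earlier results of these data known. Of the listed genes, 15 were not found on a probe set naming them alone and are not analysed here.

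The labels number the replicates. Deviations from group means of same-numbered control and InR arrays correlated at 0.50, 0.37 and 0.23, so these were taken as paired from the values. Those of HtlACT with control (−0.04, −0.06 and 0.20) were not. The main fit held no term for the pairing of control and InR arrays. Its InR calls and p-values are therefore unpaired, and the pairing enters only where the replicate block is named. Alternatives were other normalizations, filters, limits and probe set summaries, a pseudocount of 16, fewer arrays and the replicate block. Tables and plots were made with Python 3.11.15, numpy 2.4.6, pandas 2.3.3 and matplotlib 3.10.9.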

Additional observations from a re-analysis of the deposited data

Results flagged for a closer look

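The responses of HtlACT and InR tissue differed in the direct test for 8 of the 25 tested P450 genes. Of these, 5 were higher in HtlACT tissue (5.43% of all tested features) and 3 were lower (6.45%). In the fit without a filter *Cyp12b2*, *Cyp28d1*, *Cyp9h1* and *Cyp6d2* were not called (limma adjusted p = 0.0514 to 0.0926). HtlACT was the higher for *Cyp4ac3* (log2 difference 3.05), *Cyp4g15* (2.52), *Cyp12b2* (1.01), *Cyp28d1* (0.83) and *Cyp12e1* (0.80), and InR for *Cyp4p1* (−4.23), *Cyp9h1* (−1.49) and *Cyp6d2* (−0.81). *Cyp28d1* fell in InR tissue, and the others rose in 1 tissue or by more in 1 of them. *Cyp4p1* had entered the test only through its InR arrays. Its HtlACT signals also lay below the medians of their arrays, so that the size of its difference is poorly measured. Without a filter, *Cyp4p2* (−7.11) and *Cyp6g2* (−3.27) differed as well, both with HtlACT signals below the medians of the arrays, so that the sizes are not measured. The ecdysone synthesis genes *dib* (−1.95), *spok* (−1.94) and *sad* (−1.93) were lower in HtlACT than in InR tissue, and the ferredoxin gene *Fdx2* was higher (0.81). Of these, *dib* was tested only through its InR arrays, and for *spok* HtlACT 2 (466) lay above InR 3 (447).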

How the results depend on the processing

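The log2 change of *Cyp4g15* kept its direction and side of the limits in HtlACT tissue (2.49 to 2.82) and against InR tissue (2.42 to 2.82) under every alternative run, and was called in none for InR tissue against control (−0.03 to 0.25). The 8 P450 genes higher in HtlACT tissue were 8 or 9 except among the brightest 5701 features, where 4 P450 genes were tested and 2 were called. With that filter the counts were 0 higher and 1 lower in InR tissue, 0 lower in HtlACT tissue, and 3 higher and 0 lower in the direct comparison. Single arrays left out gave 8 to 9 higher and 0 to 2 lower genes in HtlACT, 6 to 8 and 1 to 3 in InR tissue, and 5 to 6 and 2 to 3 in the direct comparison.

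The 1 gene lower in HtlACT tissue became 0 with quantile normalization, median centring, the pseudocount, the trend and robust options, the false discovery rates of the methods, the replicate block or without control 2 and InR 2, and 2 on the 6 arrays of the comparison (with a replicate block as well) or without control 2, InR 2 and InR 3. The 3 genes lower in InR tissue became 1 without a filter, with the false discovery rates of the methods, with the replicate block or without control 2 and InR 2, and 0 without InR 3 as well. The replicate block gave 8 genes higher in InR tissue (6 on the 6 arrays alone). Apart from the counts of lower genes in HtlACT and InR tissue given above, it changed no count of calls by over 1.5 times.

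In the direct comparison 5 genes higher became 8 with median centring, 3 without a filter or with the false discovery rates of the methods, and 1 without control 2, InR 2 and InR 3. The 3 lower became 1 with those rates, without control 2 and InR 2, or without InR 3 as well. The last setting left 1 InR array, assumed to vary like the other groups. With it calls became fewer for P450 genes and for all tested features, in InR tissue and in the direct comparison. Its counts are therefore not read as a result about P450 genes. The causes were not tested. Median centring moved the median change of all features from −0.08 to 0.22 in the direct comparison. It called 12.7% higher and 2.79% lower there, against 5.43% and 6.45%, 17.7% and 12% in HtlACT tissue, against 13% and 19.2%, and 7.38% and 12% in InR tissue, against 9.24% and 6.58%. With it 3 of 25 P450 genes were lower in InR tissue, the same share as of all features. Detection limits of dim genes could not be set without detection calls.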

Other observations

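Probe sets that name a P450 gene together with another gene entered no comparison. The probe set shared by *Cyp6v1* and *shn* read 1213, 1399 and 1186 in control, 2827, 3288 and 3884 in HtlACT and 8751, 8585 and 7020.0 in InR samples. Which of the 2 genes it reads is not known. The probe set shared by *Cyp12d1-d* and *Cyp12d1-p* read 1.37, 49.3 and 17.4 in control and 4.86, 31.3 and 52.1 in InR samples, and no more than 10.3 in HtlACT samples.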
